A study of Mus musculus with 8 samples.

Results

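The AP-1 transcription factor family is represented here by 10 genes chosen by their symbols: the Fos genes Fos, Fosb, Fosl1 and Fosl2, the Jun genes Jun, Junb and Jund, and the related genes Atf3, Batf and Maff. All 10 were found, out of 28792 gene symbols in the tables. The study sorted hair follicle stem cells, the bulge cells from which the hair regrows, out of mouse back skin and sequenced the messenger RNA of 4 populations, with 1 library each. In the first pair, mice carrying the K15CrePGR transgene, a Cre recombinase fused to a progesterone receptor domain under the keratin 15 promoter, and the reporter Rosa-YFPfl/stop/fl had either 2 floxed copies of Ctnnb1 (Ctnnb1fl/fl, labelled cKO) or 1 (Ctnnb1+/fl, labelled Het). Both populations came from females of day 99 on a mixed C57BL6/129Sv background, so the Het library also carries Cre and a floxed allele. In the second pair, C57BL6 males of day 24 with the genotype Axin2LacZ/+, in which an Axin2 allele carries LacZ, gave bulge cells sorted by LacZ activity into LacZ(+) and LacZ(-) cells as resting follicles entered growth. Both LacZ populations therefore have the same genotype. For the first pair the growth protocol speaks of resting skin while the series design speaks of the onset of growth. The sources used here do not say how many mice went into a library.

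AP-1 proteins bind DNA as pairs held together by a leucine zipper. Jun proteins pair with each other and with Fos proteins, whereas Fos proteins need a partner such as Jun. Fos, Fosb, Jun, Junb and Atf3 are classic immediate early genes, transcribed soon after growth factors, stress or wounding reach a cell, and their messenger RNAs are short-lived. Jund and Fosl2 are less dependent on such stimuli in many cells. In epidermis AP-1 factors are known for roles in proliferation, wound repair and the expression of differentiation genes.

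The first pair asks about cells with 2 rather than 1 floxed Ctnnb1 copies, and the second how bulge cells with and without Axin2 reporter activity differ. Values are FPKM, fragment counts divided by transcript length and by library size, so that genes of a library can be set side by side. With 1 library per group no difference below has a replicate check or a test, and the depth behind the values is unknown. The targeted gene Ctnnb1 stood at 370 FPKM in the library labelled cKO and 251 in the library labelled Het. A value for the whole gene says nothing of its floxed part, so the loss of that part was not tested. The names cKO and Het therefore stand for labels only. Axin2, a Wnt target, stood at 2.12 FPKM in the library labelled cKO, 16.3 in that labelled Het, 19.0 in the LacZ-positive and 9.10 in the LacZ-negative library. Of 7 bulge markers, Cd34, Itga6, Sox9 and Lhx2 were at 73.3 FPKM or more in all 4 libraries, Nfatc1 lay between 42.8 and 62.0 and Tcf7l1 between 10.9 and 14.6 FPKM. Krt15 is listed at 0 in the LacZ-negative library, where an exact 0 can be a failed estimate. In such bulk samples, fewer cells with a transcript and less of it per cell cannot be told apart. All 4 populations were sorted, and the part of cell handling in the levels of immediate early genes was not tested.

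The promoters of the 4 genes with the largest differences between the libraries labelled cKO and Het are shown because those genes stood together. Each run gives the bases just before the outermost annotated start of the gene (RefSeq, build GRCm38.p6, read in the direction of the gene). Capitals mark the letters TGACG on either strand, the core that cyclic AMP response elements share, the letters TGACNTCA, and the letters TATAAA.
Fos, chr12:85473640-85473889, plus strand: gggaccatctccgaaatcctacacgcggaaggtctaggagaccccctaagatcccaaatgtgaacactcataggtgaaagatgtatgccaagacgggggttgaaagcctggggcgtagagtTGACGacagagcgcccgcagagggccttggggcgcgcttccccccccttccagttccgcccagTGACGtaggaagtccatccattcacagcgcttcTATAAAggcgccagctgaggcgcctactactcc
Jun, chr4:95052223-95052472, minus strand: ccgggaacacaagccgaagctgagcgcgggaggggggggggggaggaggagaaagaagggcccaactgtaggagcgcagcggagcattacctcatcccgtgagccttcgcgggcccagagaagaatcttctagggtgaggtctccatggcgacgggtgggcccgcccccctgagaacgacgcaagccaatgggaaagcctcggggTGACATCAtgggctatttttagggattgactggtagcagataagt
Atf3, chr1:191183334-191183583, minus strand: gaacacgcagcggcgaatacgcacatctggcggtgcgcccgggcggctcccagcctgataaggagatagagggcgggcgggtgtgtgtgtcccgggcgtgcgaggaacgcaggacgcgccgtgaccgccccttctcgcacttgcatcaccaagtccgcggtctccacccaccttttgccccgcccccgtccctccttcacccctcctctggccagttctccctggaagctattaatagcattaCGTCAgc
Fosb, chr7:19310119-19310295, minus strand: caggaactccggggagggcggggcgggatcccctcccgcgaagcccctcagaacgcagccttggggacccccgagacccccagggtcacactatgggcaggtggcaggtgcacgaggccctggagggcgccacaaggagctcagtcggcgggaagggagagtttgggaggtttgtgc

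The Fos run holds TGACG at bases 129 to 125 and again at 66 to 62 before the start, and TATAAA at 33 to 28. The Atf3 run holds TGACG on the opposite strand at bases 7 to 3 before the start, and the Jun run holds TGACATCA at bases 45 to 38. The shorter Fosb run of 177 bases holds none of the letters searched. Of the 9 members with a promoter entry, read in 1 window each, 4 held TGACG (Fos, Junb, Atf3 and Batf), against 17.8% of 32851 windows of 250 bases in the whole table. Counting any such window of a gene, the share was 19.8% of 27025 genes. TATAAA was found in 1 of the 9, and in 12.4% of all windows. TGACNTCA was likewise found in 1 of the 9 and in 7.49% of all windows. The full response element TGACGTCA (1.55% of all windows), the AP-1 element TGANTCA (6.75%) and the CArG box bound by serum response factor (1.47%) were found in none of the 9. TGACG and TGACNTCA both match within TGACGTCA, all motifs were searched on both strands, and a match or its absence describes the letters of these windows only.

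Fos (ENSMUSG00000021250, mm9 chromosome 12, 86814839 to 86818223), the namesake of the Fos family, was the most abundant member in all 4 libraries. It stood at 938 FPKM in the library labelled cKO, 348 in that labelled Het, 551 in LacZ-positive cells and 366 in LacZ-negative ones. The level was high for the transcriptome as well: 97.7% to 99.1% of the genes at 1 FPKM or more lay below it. The library labelled cKO was the highest of the 4, and that labelled Het and the LacZ-negative one were close to each other at the low end. On the scale of log2(FPKM + 1), the difference was 1.43 for cKO over Het and 0.59 for LacZ-positive over LacZ-negative.

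Fosb (ENSMUSG00000003545, mm9 chromosome 7, 19888069 to 19895394), whose protein also exists in a short form without the activating end, stood at 240 FPKM in the library labelled cKO, 110 in that labelled Het, 150 in the LacZ-positive and 72.1 in the LacZ-negative library. It was higher in the first library of each pair, with a log2 difference of 1.13 for cKO over Het and 1.05 for LacZ-positive over LacZ-negative, and was the only member past 2-fold in both. Relative to Fos it made up 25.6% and 31.5% of the Fos level in the libraries labelled cKO and Het, and 27.3% and 19.7% in the LacZ-positive and LacZ-negative libraries.

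Fosl2 (ENSMUSG00000029135, mm9 chromosome 5, 32438844 to 32460204), which encodes Fra-2 and lacks the strong activating domain of Fos, did not follow them. It stood at 21.3 FPKM in the library labelled cKO, 24.4 in that labelled Het, 49.2 in the LacZ-positive and 71.1 in the LacZ-negative library. It was thus lower in the first library of both pairs, with log2 differences of -0.18 and -0.52, both inside 2-fold. The ratio of Fos to Fosl2, which no scaling of a whole library changes, was 44.0 in the library labelled cKO against 14.3 in the library labelled Het, and 11.2 in LacZ-positive cells against 5.15 in LacZ-negative ones. Fosl1 (ENSMUSG00000024912, mm9 chromosome 19, 5447702 to 5457549), which encodes Fra-1, stayed under 1 FPKM in all 4 libraries, at 0.386, 0.191, 0.843 and 0.143 FPKM in the same order. Its entry in the authors' deposited table is a log2 fold change of 1.02 for cKO over Het, a ratio of 2 levels at which no difference was counted here. Its interval also holds Ccdc85b.

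Jun (ENSMUSG00000052684, mm9 chromosome 4, 94715724 to 94834009), the founding Jun gene and a strong activator, was the second most abundant member in all 4 libraries. It stood at 437 FPKM in the library labelled cKO, 178 in that labelled Het, 230 in the LacZ-positive and 213 in the LacZ-negative library. The first pair is thus well separated (log2 difference 1.29) and the LacZ populations are nearly level (0.11). The interval given for Jun also holds 3 other genes, 4930551L18Rik, BC042782 and n-R5s189, of which the ribosomal feature n-R5s189 was highest, with at most 23.2 FPKM, so reads of neighbours can enter the value.

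Junb (ENSMUSG00000052837, mm9 chromosome 8, 87500810 to 87502617), often an antagonist of Jun at its targets, stood at 173 FPKM in the library labelled cKO, 94.5 in that labelled Het, 129 in the LacZ-positive and 116 in the LacZ-negative library. Its log2 difference was 0.87 in the first pair, short of 2-fold, and 0.15 in the second. Jund (ENSMUSG00000071076, mm9 chromosome 8, 73221637 to 73224515), the Jun gene with the steadiest expression in many tissues, stood at 196 FPKM in the library labelled cKO, 109 in that labelled Het, 125 in the LacZ-positive and 206 in the LacZ-negative library. Jund was therefore higher in the library labelled cKO (0.84) but lower in LacZ-positive cells (-0.71), the only measured Jun gene lower there. The ratio of Jun to Jund was 2.23 and 1.64 in the libraries labelled cKO and Het, and 1.83 and 1.03 in the LacZ-positive and LacZ-negative libraries. The interval of Jund also holds Gm11175, which was at 6.62 FPKM or less.

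Atf3 (ENSMUSG00000026628, mm9 chromosome 1, 192994174 to 193007219), a stress-induced factor that pairs with Jun proteins and represses many targets when paired with itself, had the largest difference of the family in the first pair. It stood at 246 FPKM in the library labelled cKO, 75.8 in that labelled Het, 108 in the LacZ-positive and 59.8 in the LacZ-negative library. The log2 difference was 1.69 for cKO over Het and 0.84 for LacZ-positive over LacZ-negative. Among the members Atf3 had rank 3 in the library labelled cKO, rank 6 in the library labelled Het and in LacZ-positive cells, and rank 7 in LacZ-negative cells.

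Maff (ENSMUSG00000042622, mm9 chromosome 15, 79177970 to 79189502), which encodes a small Maf protein without an activating domain of its own, stood at 28.0 and 21.3 FPKM in the libraries labelled cKO and Het (log2 difference 0.38), and at 5.48 FPKM in LacZ-positive cells and 5.67 in LacZ-negative ones (-0.04). That last sign is not stable: it turned to 0.13 after centring on the median of all genes. Batf (ENSMUSG00000034266, mm9 chromosome 12, 87027618 to 87050037), a factor best known from lymphocytes, is listed at 0 in the libraries labelled cKO and Het and stood at 0.0212 FPKM in LacZ-positive cells and 0.0742 in LacZ-negative ones.

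**Figure D1:**
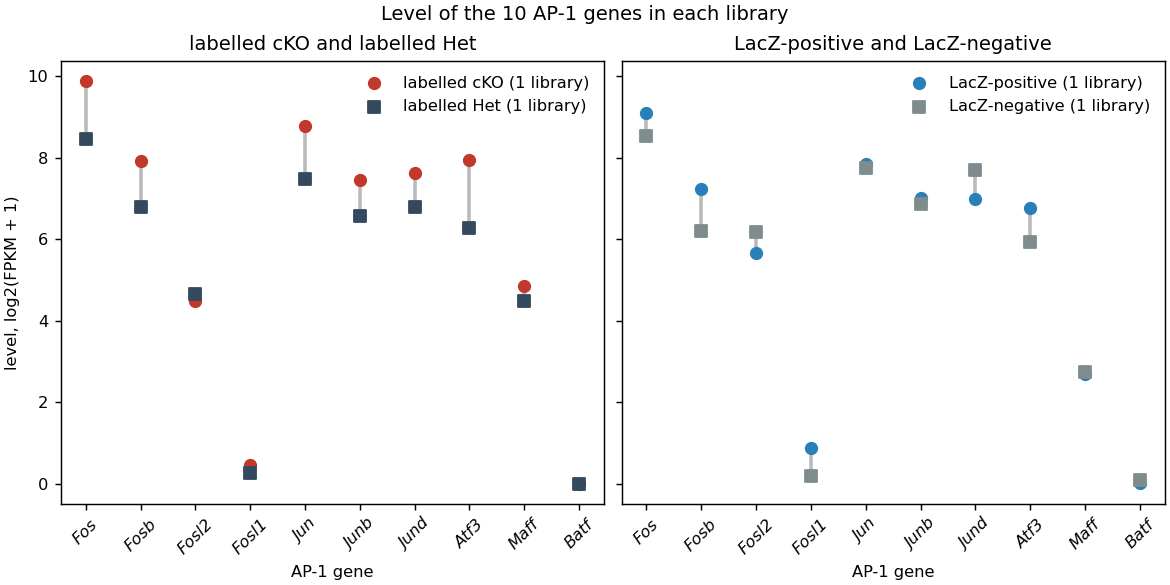
Level of each AP-1 gene as log2(FPKM + 1), with 1 point per library, in the libraries labelled cKO and Het (left) and the LacZ-positive and LacZ-negative libraries (right). Grey bars join the 2 libraries of a pair; Fos is on top everywhere, Fosl1 and Batf lie at the bottom, and the bars of Fos, Fosb, Jun and Atf3 are long in the left panel.

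Taken as a family, 8 of the 10 members reached 1 FPKM in at least 1 library of each pair; Fosl1 and Batf did not. In the first pair 7 of these 8 were higher in the library labelled cKO and Fosl2 was lower, where 60.9% of all genes that reached 1 FPKM were higher. The 4 members higher by 2-fold or more, a log2 difference of at least 1, were Atf3, Fos, Jun and Fosb, and none was lower by as much. Of the 13014 genes of this pair that reached 1 FPKM, 1.80% were higher by 2-fold or more and 2.29% lower. The median over the 8 members was 1.00, against 0.06 over all genes.

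The abundant genes of this pair give a closer background. At 50 FPKM or more in either library, a limit chosen after the values were seen, 3.41% of 2023 genes were higher by 2-fold or more and 3.16% lower. Of these genes 73.0% were higher by any amount, as were all 6 members among them. Atf3 ranked 35th from the top among these 2023 genes, Fos 47th, Jun 52nd and Fosb 59th. Junb and Jund followed at ranks 79 and 82.

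The signs of the members were more mixed in the LacZ pair. Fos, Fosb, Jun, Junb and Atf3 were higher in LacZ-positive cells and Fosl2, Jund and Maff were lower, where 36.6% of all genes were higher. Fosb alone among the 8 was higher by 2-fold or more, and none was lower by as much. Of all 13283 genes, 4.67% were higher by 2-fold or more and 2.60% lower, so the count of members past 2-fold is not far from the background. The members' median was 0.13, against -0.13 over all genes.

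The centre of this pair lay below 0, which bears on these signs. Over the 9252 genes that reached 5 FPKM in both LacZ libraries the median was -0.17. Relative to it the members stood at 1.22 (Fosb), 1.01 (Atf3), 0.76 (Fos), 0.32 (Junb), 0.28 (Jun), 0.13 (Maff), -0.35 (Fosl2) and -0.54 (Jund). Atf3 then passes 2-fold beside Fosb. The same centring changes the calls over all genes from 620 higher and 346 lower to 804 and 224. At 50 FPKM or more in either library, 4.20% of 2308 genes were higher by 2-fold or more and 4.55% lower. Of these genes 20.6% were higher by any amount, as were 5 of the 7 members among them. Fosb ranked 95th from the top of these genes, Atf3 116th, Fos 151st, Junb 320th and Jun 354th. Jund ranked 233rd from the bottom and Fosl2 521st.

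**Figure D2:**
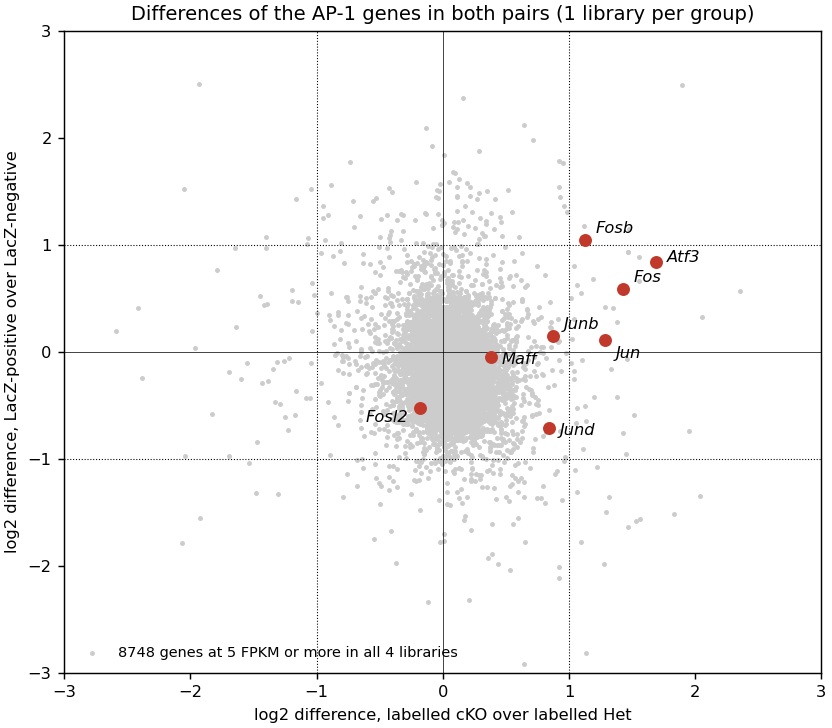
Log2 difference of the library labelled cKO over that labelled Het (x axis) against LacZ-positive over LacZ-negative (y axis), 1 grey point per gene at 5 FPKM or more in all 4 libraries, with 6 genes outside the axes, and the 8 measured AP-1 genes in red. Dotted lines mark 2-fold; Fosb lies past both, Atf3, Fos and Jun past the vertical line only, and Jund and Fosl2 lie below 0 on the y axis.

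The summed level of the 10 genes was 2281 FPKM in the library labelled cKO and 961 in the library labelled Het, a ratio of 2.37. It was 1348 FPKM in LacZ-positive cells and 1109 in LacZ-negative ones, a ratio of 1.22. The total thus differed more within the first pair. The make-up of the sum can be read within each library, where no scaling enters.

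Fos genes made up 52.6% of the sum in the library labelled cKO, 50.2% in that labelled Het, 55.7% in the LacZ-positive and 45.9% in the LacZ-negative library. Jun genes made up 35.3%, 39.7%, 35.9% and 48.2% in the same order. The LacZ-negative library was the only one of the 4 in which Jun transcripts exceeded Fos transcripts, with a ratio of Fos to Jun family of 0.953 against 1.55 in LacZ-positive cells. In the first pair this ratio was 1.49 in the library labelled cKO and 1.26 in the library labelled Het. The largest single shift was that of Jund, at 9.30% of the sum in LacZ-positive cells and 18.5% in LacZ-negative ones. Atf3 made up 10.8% in the library labelled cKO and 7.88% in the library labelled Het.

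**Figure D3:**
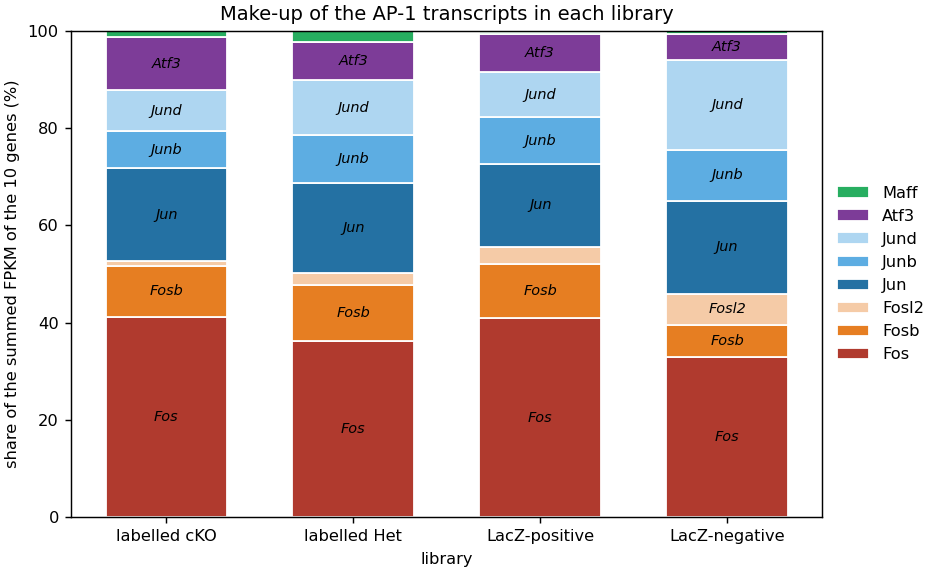
Share of each AP-1 gene in the summed FPKM of the 10 genes, in percent, with 1 stacked bar per library; Fosl1 and Batf are too low to show. Fos is the largest part of every bar, from 33.0% in LacZ-negative to 41.1% in the library labelled cKO, and the Jund part is largest in LacZ-negative cells.

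The genes around AP-1 were read from 7 lists of 110 genes, none of them a member. Beside the counts below, 60.9% of all genes that reached 1 FPKM were higher in the library labelled cKO and 36.6% in LacZ-positive cells. Higher by 2-fold or more were 1.80% and 4.67% of all genes, and lower by as much 2.29% and 2.60%. Other leucine zipper genes that can pair with Fos, Jun or Maf proteins differed little: of 13 measured in the first pair, 7 were higher and 6 lower in the library labelled cKO, none by 2-fold, with a median of 0.06 that turned to -0.01 after centring. Atf4, a factor of the integrated stress response, had the largest positive difference among those named by rule (116 against 85.1 FPKM, log2 difference 0.45), and Atf7 stood at 69.4 against 81.9 FPKM (-0.23). Maf, a large Maf factor, was at 58.6 against 44.8 FPKM (0.38). Between the LacZ populations 4 of 13 were higher and 9 lower in LacZ-positive cells, again none by 2-fold, with a median of -0.18 that lay at -0.01 after centring. Maf (33.4 against 61.9 FPKM, -0.87) and Jdp2, a repressor that pairs with Jun (7.09 against 12.9 FPKM, -0.78), had the largest differences among those named by rule.

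Factors that act on the promoters of Fos and its kin, the serum response factor, its ETS cofactors and CREB with their kinases, were all measured. In the first pair 8 of 12 were higher and 4 lower in the library labelled cKO, none by 2-fold, with a median of 0.03 that turned to -0.04 after centring. Srf itself stood at 17.7 FPKM in the library labelled cKO and 13.0 in the library labelled Het (0.42), in an interval shared by 20 genes. Among genes that reached 5 FPKM, the coactivator gene Mkl1 (0.34) and Atf1 (-0.16) followed; below that level Elk3, an ETS cofactor gene, lay at 0.67 and the kinase gene Rps6ka5 at -0.26, both named after their values were seen. In the LacZ pair 9 of 12 were higher, none by 2-fold, with a median of 0.03, or 0.20 after centring. Rps6ka3, the kinase RSK2, had the largest difference there, at 14.6 FPKM in LacZ-positive cells and 8.15 in LacZ-negative ones (0.77), while Srf and Rps6ka1 both lay at -0.24.

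MAP kinases that phosphorylate AP-1 proteins or lie above them also stayed inside 2-fold. Of 13 measured, 8 were higher in the library labelled cKO (median 0.18) and 7 in LacZ-positive cells (median 0.05), with the rest lower. Centring raised the latter to 11 of 13, with a median of 0.22. Mapk8, which encodes the Jun kinase JNK1, stood at 15.5 FPKM in the library labelled cKO and 12.0 in the library labelled Het (0.34), and Map2k3 lay at 0.21. Map3k5, a stress-activated kinase also known as ASK1, stood at 5.67 FPKM in LacZ-positive cells and 3.30 in LacZ-negative ones (0.63), while Map3k1 (-0.40) and Map2k2 (-0.29) were lower in LacZ-positive cells.

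Genes that limit AP-1 include members that differed in the same direction as Fos. Of 13 genes of protein or messenger RNA turnover and of phosphatases measured in the first pair, 9 were higher in the library labelled cKO. That is not far from the 60.9% of all genes that were higher. Past 2-fold were 2 of the 13, against 1.80% of all genes. The 2 were Dusp1, a phosphatase of MAP kinases (388 against 148 FPKM, 1.38), and Zfp36, which speeds the decay of short-lived messenger RNAs (396 against 192 FPKM, 1.04). Centring left Zfp36 at 0.97, short of the line. Dusp6, a phosphatase of ERK, followed at 21.4 against 13.1 FPKM (0.67). The list's median was 0.20. Of 12 measured in the LacZ pair, 4 were higher, none by 2-fold, where 36.6% of all genes were higher. The median there was -0.12 and turned to 0.05 after centring. Zfp36 stood at 143 FPKM in LacZ-positive cells and 81.3 in LacZ-negative ones (0.81) and Dusp1 at 160 and 131 (0.28). Trib1, an adaptor of the COP1 ubiquitin ligase, lay at -0.29.

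Genes often described as AP-1 targets in epithelia did not go with the members in the first pair. Only 13 of 24 reached 1 FPKM, and the matrix metalloproteinase genes Mmp3, Mmp9, Mmp10 and Mmp13 did not in either pair. Of the 13, 4 were higher and 9 lower in the library labelled cKO, 3 of them past 2-fold, and the median was -0.50. Cd44, a hyaluronan receptor that is also a Wnt target, stood at 17.4 against 41.9 FPKM (-1.22), and Sprr1b, a cornified envelope gene, at 0.0362 against 7.52 FPKM (-3.04). The cyclin gene Ccnd1 was at 23.8 against 42.2 FPKM (-0.80).

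The target list went the other way between the LacZ populations: 10 of 14 measured genes were higher in LacZ-positive cells, 2 of them past 2-fold, and the median was 0.60. The 2 genes were Sprr1b (4.30 against 0.555 FPKM, 1.77) and the growth factor gene Areg (3.47 against 0.722 FPKM, 1.38). After centring Vegfa (13.1 against 6.52 FPKM) and the envelope gene Ivl (19.1 against 9.997 FPKM) pass 2-fold too, at 1.07 and 1.04. Areg and Sprr1b in the LacZ pair were named after their values were seen. Lor, Ivl and Sprr1b of this list also belong to the suprabasal epidermis, whose markers differed as given below. Lor (47.4 against 81.3 FPKM, -0.77) and Ivl (3.16 against 4.11 FPKM, -0.30) were lower in the library labelled cKO of the first pair, beside Sprr1b.

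Early-response genes outside the family went with Fos in the first pair and for the most part in the LacZ pair. All 17 measured were higher in the library labelled cKO, where 60.9% of all genes were higher. Of the 17, 4 passed 2-fold upward there, as did 1.80% of all genes, and the median was 0.55. In the LacZ pair 12 of 17 were higher in LacZ-positive cells and 5 lower, where 36.6% of all genes were higher. Upward, 2 of the 17 passed 2-fold in that pair, as did 4.67% of all genes, and the median was 0.41. Nr4a1, Cyr61 and Egr1 led in the first pair (1.56, 1.55 and 1.35), and Egr2, Egr3 and Nr4a1 in the second (1.88, 1.11 and 0.88). The 5 lower in the second were Gadd45b (-0.58), Ctgf (-0.56), Klf4 (-0.49), Myc (-0.36) and Ier3 (-0.21), named after their values were seen. Heat shock genes were higher in 9 of 10 cases in the library labelled cKO, none by 2-fold (median 0.25, or 0.18 after centring), where 73.0% of genes at 50 FPKM or more were higher. They were led by Hspb1 at 472 against 324 FPKM (0.54), Dnaja1 (0.49) and Hsp90aa1 (0.42). In LacZ-positive cells 4 of 10 were higher, as were 20.6% of genes at 50 FPKM or more and 36.6% of all genes. The list's median in that pair was -0.12 and turned to 0.05 after centring. Hspb1 stood there at 319 against 503 FPKM (-0.65), Hspa1b lay at -0.62 and Hspd1 at 0.39.

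**Figure D4:**
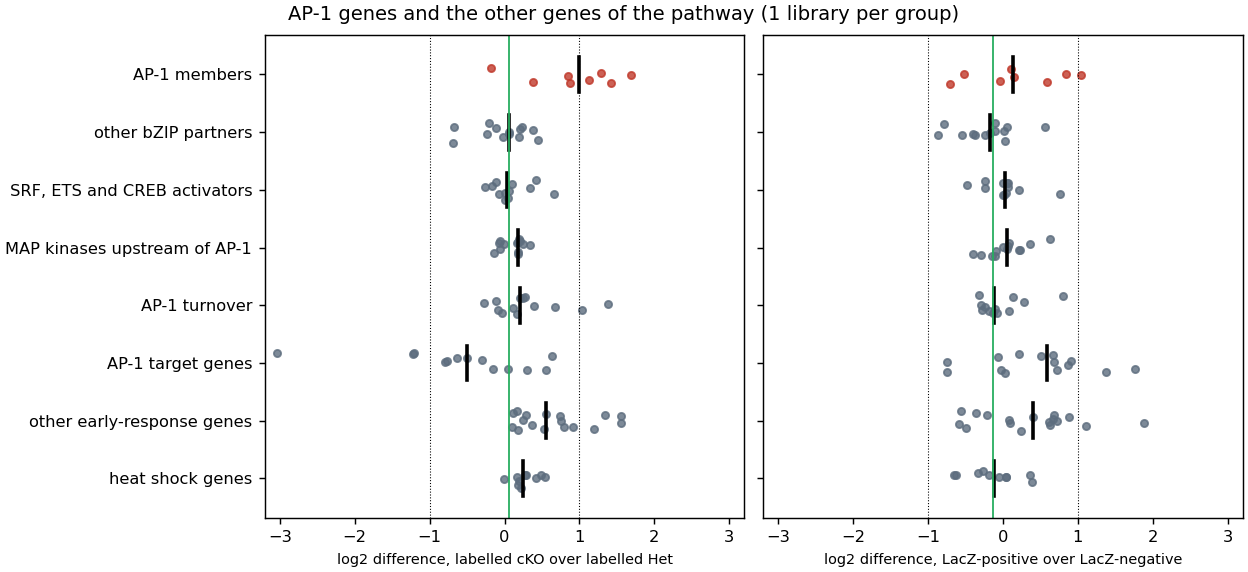
Log2 difference of each measured gene in the first pair (left) and the LacZ pair (right), with 1 row per list, the AP-1 genes in red and other genes in grey. Black bars are list medians, the green line is the median of all genes that reached 1 FPKM and dotted lines mark 2-fold. In the left panel the AP-1 and early-response medians lie right of the green line, and the target median lies left of it. Single genes of the AP-1 and target rows fall on both sides.

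The genes whose pattern was most like that of Fos were ranked by the distance between their 2 log2 differences and those of Fos, over 8747 other genes at 5 FPKM or more in all 4 libraries. The nearest outside the family were Cyr61 (distance 0.15), Egr1 (0.20), SNORD51 (0.22), Btg2 (0.26), Dusp1 (0.31), Nr4a1 (0.32), Thbs1 (0.33), AL663027.1 (0.35), Mir704 (0.35) and SNORA70 (0.37). Of these, Egr1 and the 4 small RNA or clone features share their intervals with other genes. Within the family Atf3 (0.36) was the 10th nearest gene, Jun (0.50) the 15th, Fosb (0.55) the 16th and Junb (0.71) the 31st. Maff (1.22) and Jund (1.42) were farther, and Fosl2 (1.95) had 8067 other genes nearer to Fos than it was.

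Markers of other cells were read beside these differences. The 3 endothelial markers stayed under 1 FPKM in all 4 libraries. In the first pair 5 leukocyte markers summed to 8.37 and 5.20 FPKM, 4 fibroblast markers to 23.0 and 14.7, 4 melanocyte markers to 44.8 and 46.7, and 4 suprabasal keratinocyte markers to 638 and 612 FPKM in the libraries labelled cKO and Het. Of these, 2 leukocyte and 2 fibroblast markers reached 1 FPKM and were higher in the library labelled cKO, 1 of them by 2-fold or more (Col1a1, 10.3 against 3.72 FPKM). The sum of the suprabasal markers in this pair is mostly Krt10 and Krt1, which were slightly higher in the library labelled cKO (0.16 and 0.22), whereas Lor (-0.77) and Flg (4.83 against 8.88 FPKM, -0.76) were lower, with a list median of -0.30. Ptprc, which defines leukocytes, was at 0.0201 and 0.0196 FPKM and Pdgfra, which defines fibroblasts, at 0.187 and 0.204 FPKM. The melanocyte sum in the first pair is mostly Mitf (43.2 and 44.0 FPKM), whereas Dct stood at 0.871 and 1.92 FPKM. In the LacZ pair the suprabasal markers summed to 2009 and 842 FPKM, with 4 of 4 higher in LacZ-positive cells and 3 by 2-fold or more. Leukocyte markers summed to 4.55 and 3.46 (1 of the 2 measured higher), fibroblast markers to 8.74 and 17.6 (none of the 2 measured higher) and melanocyte markers to 26.4 and 27.6 FPKM there. Mitf stood at 9.41 and 13.6 FPKM and Dct at 15.2 and 12.5 FPKM in the LacZ-positive and LacZ-negative libraries. Of 7 bulge markers in this pair, 4 were lower in LacZ-positive cells and 3 higher, where 36.6% of all genes were higher. Cd34 (223 against 516 FPKM, -1.21), Lhx2 (-0.74) and Sox9 (-0.52) were among the lower ones. Itga6 (0.05) and Nfatc1 (0.09) were higher, as was Krt15 with its listed 0 in LacZ-negative cells. The list median was -0.26, or -0.09 after centring. Lyz2 is listed at 0 in LacZ-positive cells, and Cdh5 and Tyr are listed at 0 in the libraries labelled cKO and Het respectively. The part of the marker differences, bulge and suprabasal included, in the AP-1 and target gene differences was not tested.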

How the data were processed

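Of the 8 samples, the 4 RNA sequencing libraries were used, grouped by their titles; the 4 ChIP samples were left out. The authors' tables, 2 in number, hold FPKM per the file headers, in 32091 rows each, and the first also holds their deposited log2 fold changes (cKO/Het). Cufflinks 2.1.1, TopHat and TopHat2 2.0.4 are named in the submitters' processing notes with the builds mm9 and GRCm38, without roles; other settings of the authors' pipeline are not stated in the sources used here. FPKM divide by a library total of fragments, so features with many fragments can shift all others. By summed FPKM, mt-Ts1, a mitochondrial transfer RNA, took 20.6% to 28.1%. As FPKM are also divided by length, that is not its share of the fragments, which is unknown here. Because FPKM hold no read numbers, the depth is unknown, and neither intervals nor floors were computed.

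Coordinates were taken as mm9, since those of chromosome 7 reach 152509964, past the last GRCm38 gene end of 145324059. Rows of a symbol were summed, after 25 symbols turned into dates were restored from identifiers. Differences are of log2(FPKM + 1) for genes that reached 1 FPKM in either library, which understates changes of low genes; centring used the median of genes at 5 FPKM or more in both. Steps ran in Python 3.11.15 with pandas 2.3.3 and were tested on simulated data. Members and lists were chosen with earlier results of these data known. Named genes were the 10 members, of each pathway list the 3 largest differences per pair among genes reaching 5 FPKM in either library and above 0 in both, and the 10 genes nearest to Fos; exceptions are stated, and a few genes the rule takes are not reported here. The motif TGACNTCA was added after the sequences were seen. Proteins are not shown, and Fosl1 has no promoter shown. Alternatives were pseudocounts of 0.1 and 5, no minimum and a minimum of 5 FPKM, 3 rescalings, the highest row per symbol, and members alone in their interval.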

Additional observations from a re-analysis of the deposited data

How the results depend on the processing

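With 1 library per group, no alternative has an error to be read against. In the first pair the count of members higher by 2-fold or more was 4 in 7 of 9 alternatives. It was 3 after rescaling to the sum without small, mitochondrial, Gm and Rik features, where Fosb lay at 0.99, and 3 among the 6 members above the minimum that are alone in their interval, which leaves out Jun. The members' median ranged from 0.86 to 1.00, and the direction of each of the 8 measured members held throughout. In the LacZ pair the count was 1 in 7 of 9 alternatives and 2 with centring on the median and with that rescaling, through Atf3. The median ranged from 0.13 to 0.37. Maff turned from -0.04 to 0.13 with centring, 0.094 with upper-quartile scaling and 0.14 with rescaling; the other 7 measured members kept their direction. No member was lower by 2-fold in any of these alternatives. Upper-quartile scaling and the same rescaling also move the all-gene split of the LacZ pair toward higher genes, to 75.7% and 78.9% of the calls from 64.2%. No paired analysis was possible because each group has 1 library.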

Other observations

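Some members stood at different levels in the 2 pairs. Fosl2 was at 21.3 and 24.4 FPKM in the libraries labelled cKO and Het but at 49.2 and 71.1 FPKM in the LacZ-positive and LacZ-negative libraries. Maff was at 28.0 and 21.3 FPKM in the first pair and at 5.48 and 5.67 FPKM in the second. Of the genes nearest to Fos in pattern, Cyr61 was at 618 and 210 FPKM in the first pair and at 38.8 and 24.1 FPKM in the second, and Thbs1, a matrix protein gene, at 244 and 114 FPKM and at 9.96 and 6.48 FPKM. The tables were made separately, and the pairs differ in sex, age, strain, genotype and sort, which cannot be told apart. Whether they also differ in stage is not settled, as the labels of the first pair disagree on it.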
